A study of Mus musculus with 6 samples.

Results

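The cytosolic ribosomal protein genes are the genes whose products, together with ribosomal RNA, build the ribosome of the cytoplasm. They were taken by symbol from a table of 55298 gene identifiers measured by RNA sequencing in brain cells of mice. The pattern admitted symbols that start with Rpl or Rps followed by a number and at most 1 of the letters a, l or x, together with Rpsa and the stalk genes Rplp0, Rplp1 and Rplp2, and kept those annotated as protein-coding. This gave 80 genes, of which 46 encode proteins of the large subunit, 30 encode proteins of the small subunit and 4 are paralogues (Rpl3l, Rpl10l, Rpl39l and Rps27l). None of the 80 was listed at 0 in every sample. Membership followed from symbol and annotation and from no measured value, but earlier results of these data were known when the genes were chosen. The pattern misses Rps3a1 and Fau, among others, which also encode ribosomal proteins, and these are given beside the members.

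All cells came from mice of the strain labelled c56Bl/6j and were captured from brain, without culture, on magnetic beads carrying antibodies to O4, a lipid antigen of the oligodendrocyte lineage. The EAE group was immunised with the peptide MOG 35-55 of myelin oligodendrocyte glycoprotein, which induces experimental autoimmune encephalomyelitis, and the OVA group was treated with ovalbumin in its place. Animals were killed when disease was at its peak, and neither an age nor a sex is stated. EAE 1, EAE 2 and EAE 3 each combined RNA of 2 mice, OVA 2 also combined RNA of 2 mice, and OVA 1 and OVA 3 each held RNA of 1 mouse. Pooling averages animals, and the spread between samples is therefore not the spread between mice. The cells were a preparation and not a pure type. Markers of oligodendrocytes had the highest sum of the cell type lists in every sample, without a correction for transcript length. The summed astrocyte markers lay at 15.92 to 16.23 in EAE and 16.70 to 17.03 in OVA on the log2 scale.

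Every ribosome holds 1 copy of nearly all of these proteins, which are made in the cytoplasm and assembled with ribosomal RNA in the nucleolus. Their mRNAs belong to the 5′ terminal oligopyrimidine (TOP) class, which starts with a cytosine followed by a run of pyrimidines and whose translation responds to the kinase mTOR through the protein Larp1. Oligodendrocytes make large amounts of myelin protein and lipid, and ribosomal protein mRNAs are among the abundant transcripts of these cells as of most others.

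The values are regularised logarithms (rlog) of read counts on the log2 scale, as the authors deposited them, so a difference of 1 is a 2-fold difference and weakly expressed genes are shrunk towards their own mean. The depth of the samples is unknown because the table holds no counts. Of the 80 genes, 78 had a mean rlog value of at least 3 and were tested among 18161 genes with limma. Rpl10l and Rpl39l fell below that level and were not tested.

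Most ribosomal protein transcripts stood slightly higher in EAE than in OVA, and for none was the difference large enough against the spread between samples to pass the test. Of the 78 tested, 0 passed an adjusted p of 0.05 in limma in either direction, beside 1.72% of all tested genes that passed as higher and 0.666% that passed as lower. The difference was above 0 for 76 of the 78 (97.4%), against 49.3% of all tested genes. The median difference was 0.25 over the 78, 0.24 over the large subunit and 0.26 over the small subunit, while that over all tested genes was -0.00. At an unadjusted p under 0.05 in limma, 24 (30.8%) stood higher in EAE and 0 lower. The background at that level was 9.17% of all tested genes higher and 7.15% lower. The count of 24 depended on the samples used. It was 7 (8.97%) without EAE 1, 9 (11.5%) without EAE 2 and 17 (21.8%) without EAE 3. Without OVA 1, OVA 2 and OVA 3 it was 11 (14.1%), 9 (11.5%) and 66 (84.6%). In the same order, 1136, 1193, 1436, 1767, 1422 and 2410 of the 18161 tested genes stood higher at that level.

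The differences ran from -0.08 for Rps10 to 0.53 for Rpl36. They lay between 0.1 and 0.4 for 65 genes, over 0.4 for 6 and between 0 and 0.1 for 5. Only Rps10 and the paralogue Rpl3l lay below 0. All 3 EAE samples were above all 3 OVA samples for 22 of the 78 (28.2%), where 12.1% of all tested genes had groups apart in that direction. Of these 22, 13 of 46 encode large and 9 of 30 small subunit proteins. No ribosomal protein gene had all EAE samples below all OVA samples, a pattern seen in 10.8% of all tested genes.

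**Figure D1:**
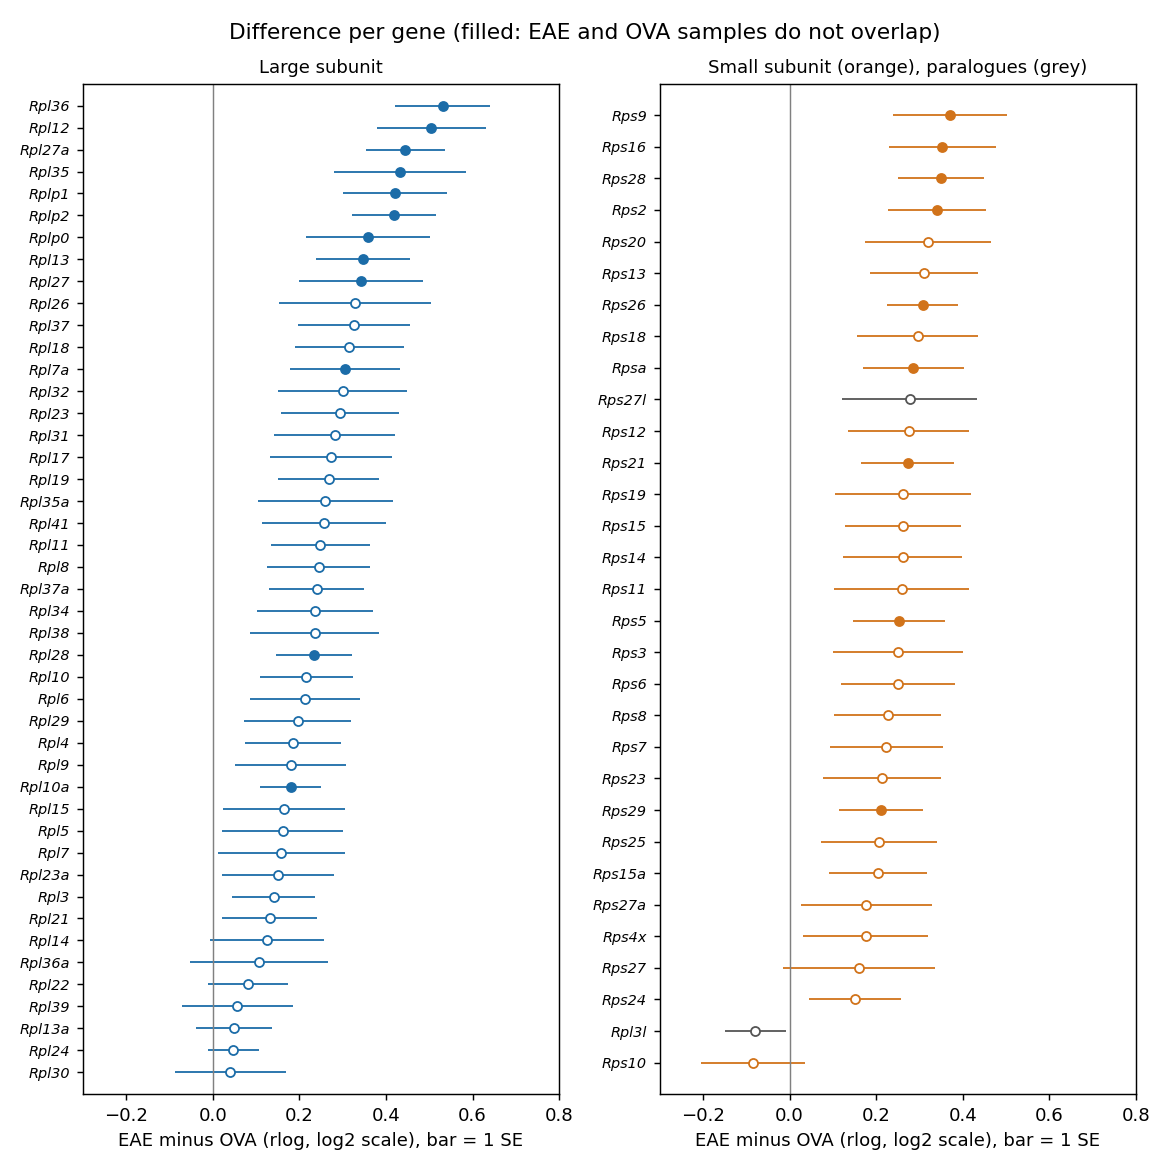
Difference between EAE and OVA for the tested genes, with 2 of the 78 not drawn (horizontal axis, rlog on the log2 scale; bars are 1 standard error from limma), with the large subunit on the left and the small subunit and 2 paralogues on the right. Filled points mark genes whose EAE and OVA samples do not overlap, and Rps10 and Rpl3l are the only points left of 0.

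The OVA samples lay further apart than the EAE samples. Taking each gene's deviation from its own mean over the 6 samples, the median over the 78 genes was 0.159 in EAE 1, 0.146 in EAE 2, 0.048 in EAE 3, -0.39 in OVA 1, -0.079 in OVA 2 and 0.104 in OVA 3. OVA 1 was thus far below the rest, OVA 3 stood above EAE 3, and the single-mouse samples were the lowest and the highest of the OVA group. OVA 1 was the lowest of the 6 samples for 73 of the 78 genes. OVA 3 was the highest of the 6 for 17 genes, lay above the mean of the EAE samples for 30 and above the lowest EAE sample for 56. Every EAE sample exceeded OVA 1 for 75 genes, OVA 2 for 65 and OVA 3 for 22. The median SD was 0.07 among EAE samples and 0.257 among OVA samples, and the SD was larger in OVA for 74 of the 78.

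**Figure D2:**
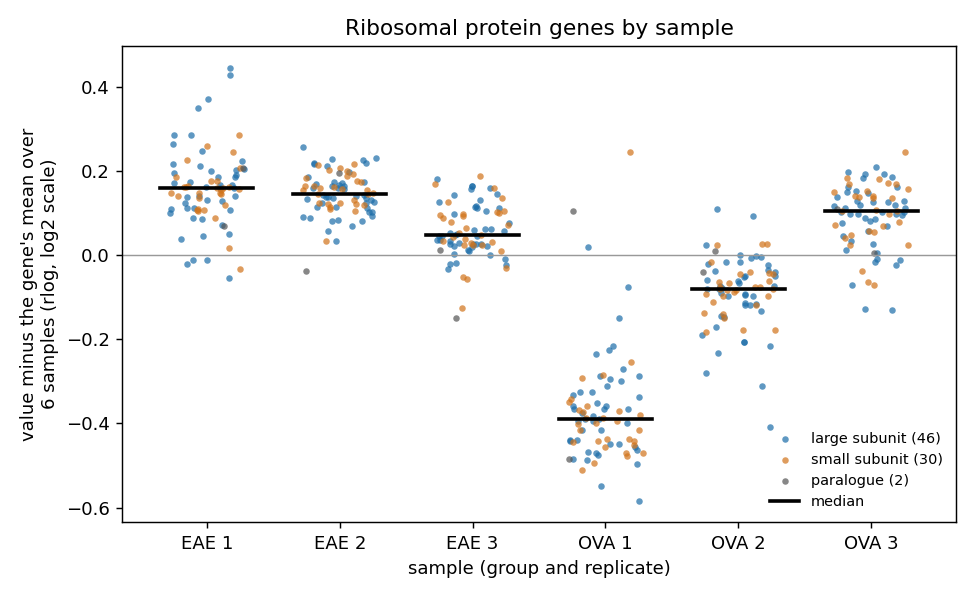
Each of the 78 tested genes in each sample as its value minus the gene's mean over 6 samples (vertical axis, rlog on the log2 scale; black lines are medians). OVA 1 lies lowest with a median of -0.39, and OVA 3, at 0.104, overlaps the 3 EAE samples.

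The size of the difference depended on which OVA sample was used. Without OVA 1 the median fell to 0.11, 68 of 78 genes were above 0 against 50.9% of all tested genes, and 0 passed the test, beside 0.545% of all genes higher. Without OVA 3 the median was 0.36, and 20 of 78 (25.6%) passed as higher in EAE, 14 of the large and 6 of the small subunit, where 4.68% of all tested genes did. Without OVA 3, 64 of the 78 also had groups that did not overlap, against 21.4% of all tested genes. The median over all tested genes was 0.00 without OVA 1 and -0.00 without OVA 3. Leaving out EAE 3 in place of an OVA sample left the count of passing genes at 0 and raised the number with groups apart to 52, against 16.7% of all tested genes.

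Scaling and weighting moved the count of passing genes as well. Rpl36 alone passed after each sample was centred on its median (background 1.82% higher), and Rpl27a and Rpl36 passed after quantile normalisation (1.83% higher). With array quality weights, which limma estimates from the residuals of each sample, 50 of the 78 passed, where 15.7% of all tested genes passed as higher. Those weights were 8.85 for OVA 2 and 0.275 and 0.222 for OVA 1 and OVA 3, so the OVA level came almost wholly from OVA 2.

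The 20 genes that passed as higher in EAE without OVA 3 were led by Rpl12, Rpl36, Rpl35 and Rplp1. Rpl12 differed by 0.62 (adjusted p = 0.0147 in limma), Rpl36 by 0.60 (0.0192), Rpl35 by 0.58 (0.0280) and Rplp1 by 0.54 (0.0154). Among the others were Rps9, Rplp0, Rpl27, Rpl27a, Rplp2, Rps20, Rps2, Rpl18, Rps18, Rps13, Rpl13, Rpl19, Rps26, Rpl37a and Rpl28. Of the 20, 14 belong to the 22 whose groups did not overlap over all 6 samples. Leaving out OVA 1 instead put 10 of the 78 at or below 0. Among the 10 were Rpl30 at -0.11, Rpl36a at -0.09, Rpl39 at -0.08 and Rps27 at -0.06.

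**Figure D3:**
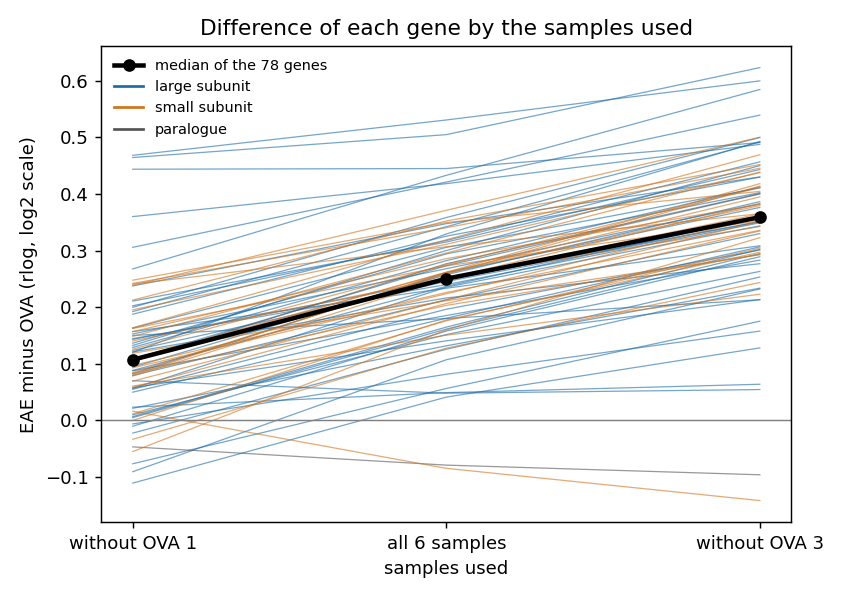
Difference between EAE and OVA of each of the 78 tested genes (vertical axis, rlog on the log2 scale) computed without OVA 1, with all 6 samples and without OVA 3; the thick line joins the medians. The median goes from 0.11 through 0.25 to 0.36.

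Other measures also set OVA 1 or OVA 3 apart. The summed neutrophil markers were 15.56 in OVA 3 and 11.50 to 12.45 in the other 5 samples, and the summed B cell markers were 12.21 in OVA 3 and 10.67 to 11.14 elsewhere. All 8 neutrophil and all 6 B cell markers were found, with none at 0. Summed monocyte or macrophage markers, with all 10 found, were 14.96 to 15.63 in EAE, 14.29 in OVA 1, 14.53 in OVA 2 and 15.05 in OVA 3. Among 886 other protein-coding genes with transcripts shorter than 1000 bases, the median deviation was -0.128 in OVA 1 and the median difference between EAE and OVA was 0.074. The corresponding values for the 53 ribosomal protein genes of that length were -0.394 and 0.259. The part of transcript length in the ribosomal protein values was not tested.

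Markers of several cell types also moved with the groups, and none of the markers of any list was at 0. All 10 oligodendrocyte markers lay above 0 with a median difference of 0.25, with 4 of the 10 apart and 0 past the limma threshold. Over all 6 samples that median equalled the one of the 78 ribosomal protein genes. Without OVA 1 the oligodendrocyte median was 0.35, beside 0.11 for the ribosomal protein genes, and without OVA 3 it was 0.11, beside 0.36. Without OVA 2 both medians rose, to 0.32 and 0.28. Without EAE 1, EAE 2 and EAE 3 the oligodendrocyte median was 0.25, 0.29 and 0.20, beside 0.23, 0.23 and 0.28. The sum of the oligodendrocyte markers ran from 20.32 to 20.46 in EAE and from 19.94 to 20.38 in OVA. Of 10 T cell markers all were higher in every EAE sample, 6 passed as higher and the median was 0.62, with sums of 9.28 to 9.48 in EAE and 8.60 to 8.85 in OVA. Of 10 monocyte or macrophage markers all lay above 0 and 4 passed as higher. Of 8 astrocyte markers 7 lay below 0, with a median of -0.73, and 5 passed as lower and 1 as higher. All 8 microglia markers lay below 0, with a median of -0.58 and 2 past the threshold, and all 10 endothelial markers lay below 0, with a median of -0.56 and 0 past it. The part of cell composition in the ribosomal protein values was not tested. In a bulk sample, fewer cells of a type and less RNA per cell cannot be told apart.

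Xist, which coats the inactive X chromosome, was 13.50, 13.55 and 14.16 in EAE and 7.39, 7.63 and 7.62 in OVA, and the Y-linked Ddx3y, Kdm5d, Uty and Eif2s3y all had lower values in each EAE sample than in each OVA sample. Ddx3y was 10.18, 10.17 and 9.44 in EAE and 11.46, 11.38 and 11.29 in OVA, and Eif2s3y was 10.52, 10.11 and 9.38 in EAE and 11.84, 11.46 and 11.10 in OVA. Every EAE pool thus held both Xist and Y-linked transcripts. Sex-linked transcripts thus moved with the groups, and the labels give no sex, so that sex and treatment cannot be told apart. Of the X-linked ribosomal protein genes, Rpl10 differed by 0.22 ± 0.11, Rps4x by 0.18 ± 0.14, Rpl36a by 0.11 ± 0.16 and Rpl39 by 0.06 ± 0.13 (SE). None of the 4 passed the test, and all 4 were below the median difference of the 78.

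The large subunit genes with the largest differences were Rpl36, Rpl12 and Rpl27a. Rpl36 (ENSMUSG00000057863.6, GRCm38 chromosome 17, 56613416 to 56614243), which encodes a small protein of the large subunit, was 10.45, 10.23 and 10.13 in EAE and 9.61, 9.72 and 9.87 in OVA. Every EAE sample was above every OVA sample. The difference was 0.53 ± 0.11 (SE), a fold of 1.45, with an adjusted p of 0.0548 in limma. Rpl12 (ENSMUSG00000038900.17, chromosome 2, 32961559 to 32965345), a protein at the base of the stalk, was 11.66, 11.45 and 11.34 in EAE and 10.90, 10.82 and 11.21 in OVA. The groups did not overlap, although OVA 3 came close to EAE 3, and the difference was 0.51 ± 0.13 (SE, adjusted p = 0.0959). Rpl27a (ENSMUSG00000046364.14, chromosome 7, 109519147 to 109522367), another structural protein, was 10.83, 10.60 and 10.62 in EAE and 10.23, 10.15 and 10.33 in OVA. Its OVA samples lay closer together than those of most members, and its difference of 0.45 ± 0.09 (SE) had the smallest adjusted p of the 78, 0.0531.

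The stalk proteins, encoded by Rplp0, Rplp1 and Rplp2, form the arm of the large subunit that recruits the elongation factors. Rplp1 was 12.21, 12.09 and 12.10 in EAE and 11.48, 11.70 and 11.95 in OVA, a difference of 0.42 ± 0.12 (SE, limma adjusted p = 0.131). Rplp2 was 11.75, 11.56 and 11.51 in EAE and 11.07, 11.17 and 11.33 in OVA, a difference of 0.42 ± 0.10 (SE, adjusted p = 0.0762). Rplp0, the scaffold on which the other two sit, was 12.59, 12.54 and 12.54 in EAE and 11.88, 12.23 and 12.48 in OVA, a difference of 0.36 ± 0.14 (SE, adjusted p = 0.270). In all 3 genes OVA 1 was the lowest sample, OVA 3 the highest of its group, and no OVA sample reached an EAE sample.

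At the other end of the large subunit were Rpl30, Rpl24 and Rpl13a. Rpl30 was 11.26, 11.35 and 11.26 in EAE and 10.94, 11.38 and 11.42 in OVA. Its OVA 2 and OVA 3 values were above all EAE values, so that only OVA 1 placed the difference of 0.04 ± 0.13 (SE) above 0. Rpl24 at 0.05 ± 0.06 and Rpl13a at 0.05 ± 0.09 (SE) were also the members of the large subunit with the lowest levels. Rpl22, known also for roles in lymphocyte development, differed by 0.08 ± 0.09, and Rpl38, known from control of selected mRNAs in the embryo, by 0.24 ± 0.15 (SE).

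Rpl5 and Rpl11 form with a ribosomal RNA the particle that binds Mdm2 when ribosome assembly fails. Rpl5 was 11.82, 11.79 and 11.72 in EAE and 11.30, 11.66 and 11.88 in OVA. OVA 3 was the highest of the 6 samples and OVA 1 the lowest, and the difference was 0.16 ± 0.14 (SE, limma adjusted p = 0.609). Rpl11 differed by 0.25 ± 0.11 (SE, adjusted p = 0.338), also with overlapping groups.

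**Figure D4:**
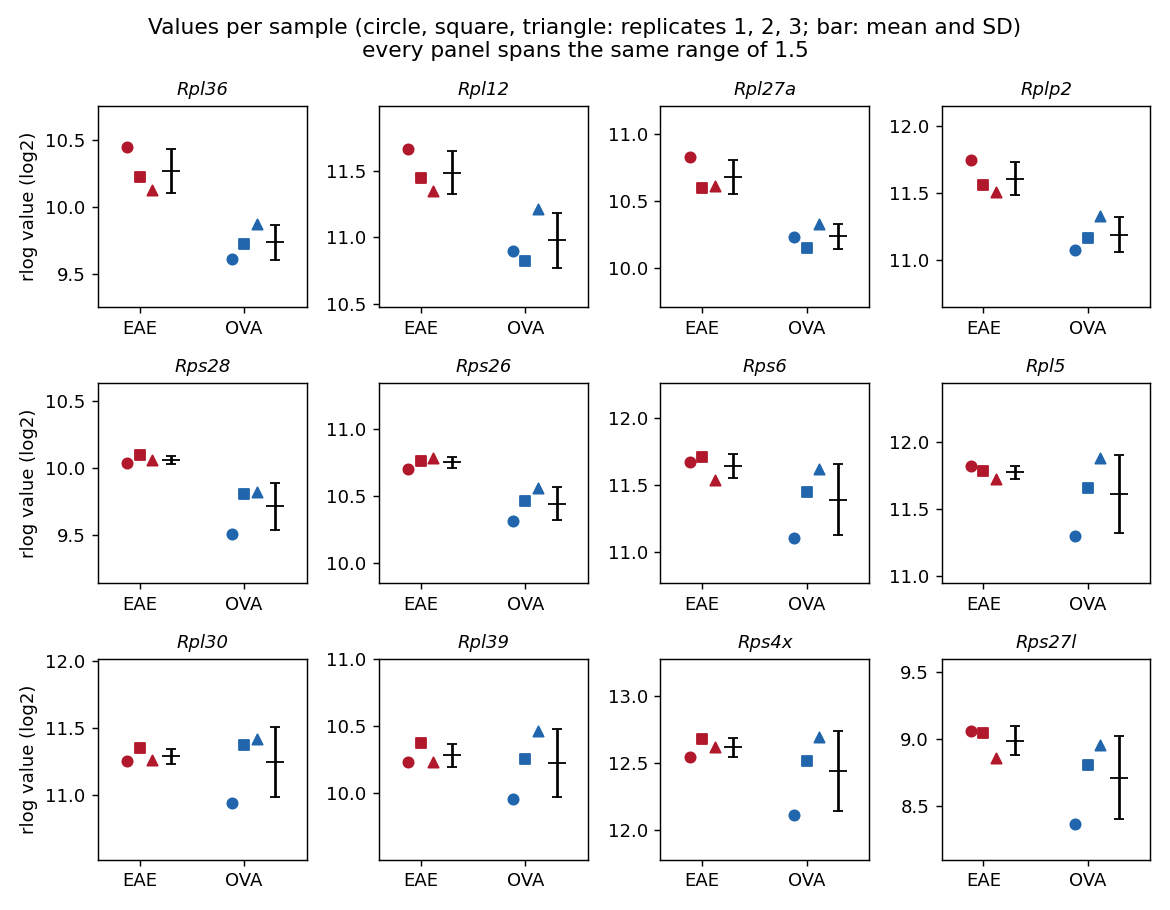
rlog values (log2) of 12 genes in each sample, with EAE in red, OVA in blue, replicates 1, 2 and 3 as circle, square and triangle, and the mean and SD of each group as a bar; every panel spans 1.5 units. EAE and OVA are apart in the panels of Rpl36, Rpl12, Rpl27a, Rplp2, Rps28 and Rps26, whereas OVA 3 lies among or above the EAE samples in those of Rps6, Rpl5, Rpl30, Rpl39, Rps4x and Rps27l.

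In the small subunit the largest differences were those of Rps9, Rps16 and Rps28, all with groups that did not overlap. Rps9 (ENSMUSG00000006333.14, chromosome 7, 3703993 to 3706897), which helps to form the entry of the mRNA channel, was 12.64, 12.58 and 12.48 in EAE and 11.93, 12.20 and 12.45 in OVA, a difference of 0.37 ± 0.13 (SE, limma adjusted p = 0.217). OVA 3 came close to EAE 3. Rps16 differed by 0.35 ± 0.12 (SE, adjusted p = 0.211). Rps28 was 10.04, 10.10 and 10.06 in EAE and 9.51, 9.81 and 9.82 in OVA, a difference of 0.35 ± 0.10 (SE, adjusted p = 0.131). OVA 2 and OVA 3 of Rps28 were nearly equal, and OVA 1 alone was lower than both.

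Rps26 (ENSMUSG00000025362.6, chromosome 10, 128624534 to 128626747), which contacts mRNA at the exit channel, was 10.70, 10.76 and 10.79 in EAE and 10.31, 10.46 and 10.56 in OVA. EAE samples were above all OVA samples with little spread, and the difference of 0.31 ± 0.08 (SE) had the smallest adjusted p of the small subunit in limma, 0.115. Rpsa, also known as the laminin receptor precursor, was 12.58, 12.58 and 12.57 in EAE and 12.03, 12.36 and 12.48 in OVA. Its 3 EAE pools were nearly identical, and the difference of 0.29 ± 0.12 (SE) was 0.16 without OVA 1.

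Rps6, the ribosomal protein phosphorylated downstream of mTOR, was 11.67, 11.70 and 11.54 in EAE and 11.10, 11.45 and 11.62 in OVA. OVA 3 exceeded EAE 3, and the difference was 0.25 ± 0.13 (SE). Rps19, the gene most often mutated in Diamond-Blackfan anaemia, differed by 0.26 ± 0.16, Rps3, which also acts in DNA repair, by 0.25 ± 0.15, and Rps25, used by viral internal ribosome entry sites, by 0.21 ± 0.13 (SE). For these 3 genes OVA 3 overlapped EAE. Among the lowest differences of the small subunit were those of Rps24 at 0.15 ± 0.11 and Rps10 at -0.08 ± 0.12 (SE). Rps10 was 7.16, 7.22 and 7.06 in EAE and 7.43, 7.14 and 7.12 in OVA, so OVA 1, the lowest sample for most members, was here the highest.

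The paralogues were compared with their partners. Rps27l, a p53-inducible relative of Rps27, was 9.05, 9.04 and 8.86 in EAE and 8.36, 8.81 and 8.96 in OVA, a difference of 0.28 ± 0.16 (SE), beside 0.16 ± 0.18 for Rps27. Both had OVA 1 as the lowest sample. Rpl3l, the relative of Rpl3 known from heart and skeletal muscle, was 4.00, 3.89 and 3.78 in EAE and 4.03, 3.94 and 3.93 in OVA. The groups overlapped at a low level, with a difference of -0.08 ± 0.07 (SE), beside 0.14 ± 0.10 for Rpl3. Rpl10l and Rpl39l, relatives of the X-linked Rpl10 and Rpl39 known from the testis, had means below 3 and were not tested. Rpl10l was -1.97 in each sample, and Rpl39l ran from 2.88 to 3.03.

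Levels of the ribosomal protein genes are given here after subtracting the log2 of the transcript length in kb. On that scale the highest of the large subunit were Rplp1 at 12.92, Rpl9 at 12.80 and Rpl4 at 12.75, and the highest of the small subunit were Rps29 at 13.48, Rps15 at 13.04 and Rps27 at 13.04. The value depends on the annotated transcript taken as principal, which was 5179 bases long for Rps15a (9.05 per kb) and 3706 bases for Rps20 (9.45 per kb). The median over 73 core members was 11.78, with a range of 9.05 to 13.48. The remaining core members, Rpl24 at 4.29, Rps10 at 7.36 and Rpl13a at 7.97, lay below that range.

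These 3 genes share exons with another annotated gene on the same strand. In the GENCODE M21 annotation of GRCm38, 71.5% of the principal transcript of Rpl24 (ENSMUSG00000098274.7, chromosome 16, 55966275 to 55971435) lies in exons of Gm28037. The share was 59.3% for Rpl13a (ENSMUSG00000074129.14, chromosome 7, 45125558 to 45128761) with Gm45713 as the largest partner, and 53.6% for Rps10 (ENSMUSG00000052146.16, chromosome 17, 27630418 to 27636669) with RPS10-NUDT3. All 3 partners were listed at 0 in every sample. Rpl19, at 10.7%, was at 11.81 per kb, and the other 72 core members shared 0%. Outside the pattern, Rpl36al at a mean of 3.31 shared 63.1% with Gm49383. The treatment of reads in shared exons is not stated, so the level and the difference of these 4 genes are uncertain. Ribosomal protein genes also have many processed pseudogenes, among which reads can be split.

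**Figure D5:**
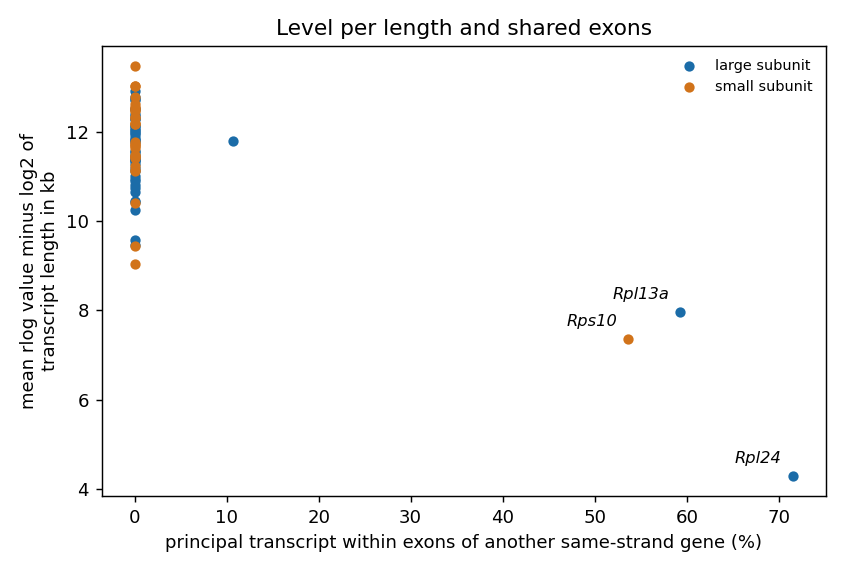
Mean rlog value minus the log2 of the principal transcript's length in kb (vertical axis) against the percentage of that transcript within exons of another gene on the same strand (horizontal axis) for the 76 genes of the large and small subunit. Rpl24, Rps10 and Rpl13a, with 53.6% to 71.5% shared, lie at 4.29 to 7.97, and the other 73 at 9.05 or above.

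The start of the transcript is shown because the TOP tract defines how these mRNAs are controlled. RefSeq promoters of GRCm38.p6 were matched for 60 of the 80 genes. A start with C followed by 4 or more of C or T was found at the annotated start of 13 of the 60 (21.7%), against 3.01% of 27025 genes. The annotated start can differ from the one used in these cells by a few bases, and a run that begins beside it is then missed. The windows below hold 15 bases before and 15 from the start on, with the tract in capitals. Rpl35, Rplp2, Rpl28 and Rps21 had EAE and OVA samples apart, Rps6 and Rps27 did not, and Rps10 was the gene with the lowest difference.
Rpl35: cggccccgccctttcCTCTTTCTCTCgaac
Rplp2: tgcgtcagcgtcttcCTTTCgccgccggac
Rpl28: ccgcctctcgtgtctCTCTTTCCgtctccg
Rps21: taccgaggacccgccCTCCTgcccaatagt
Rps6: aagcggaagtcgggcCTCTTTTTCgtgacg
Rps27: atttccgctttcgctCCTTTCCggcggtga
Rps10: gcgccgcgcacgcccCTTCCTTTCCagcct
Tracts of 5 to 11 bases thus stood in genes from both ends of the range of differences. The median difference was 0.24 over the 13 tested genes with such a start and 0.26 over the 45 tested genes without it.

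A pair of promoter motifs was searched on both strands of the 300 bases from 250 before to 50 after the start. CCGGAAG, a core recognised by ETS factors (reverse complement CTTCCGG), was in 25 of the 60 promoters (41.7%) and in 9.93% of 27025. The median difference was 0.27 with it and 0.24 without it. TCTCGCGA, whose reverse complement TCGCGAGA overlaps it when the palindrome is complete, was in 10 of the 60 (16.7%) and in 1.13% of 27025. The 10 were Rpl10a, Rpl12, Rpl26, Rpl27a, Rpl35, Rpl7a, Rps15a, Rps19, Rps28 and Rps6, with a median difference of 0.32 beside 0.24 for the 48 tested genes without it. The 250 bases before the start of Rpl12, on the plus strand at chr2:32961462-32961711, are shown as an example from the gene with the second largest difference, with the palindrome in capitals.
Rpl12: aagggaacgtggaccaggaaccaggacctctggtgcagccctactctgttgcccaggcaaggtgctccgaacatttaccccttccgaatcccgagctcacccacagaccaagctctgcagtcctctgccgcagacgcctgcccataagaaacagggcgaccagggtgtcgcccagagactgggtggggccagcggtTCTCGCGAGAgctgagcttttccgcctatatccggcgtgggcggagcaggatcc
A match describes the letters in the window and does not show that a factor is bound there.

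Ribosomal protein genes that the pattern misses were read from the same fit. Fau, which encodes the small subunit protein eS30 as a fusion with a ubiquitin-like protein, was 11.48, 11.41 and 11.32 in EAE and 10.73, 10.99 and 11.33 in OVA. OVA 3 just exceeded EAE 3, and the difference was 0.39 ± 0.14 (SE, limma adjusted p = 0.234). Rps3a1 differed by 0.23 ± 0.14 (SE), also with overlapping groups. The related genes Rpl22l1, Rpl36al and Rpl7l1 differed by -0.13 ± 0.13, -0.03 ± 0.07 and -0.03 ± 0.10 (SE).

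Other genes of the translation apparatus were taken from lists of textbook members. In a list of 22 translation factors and other TOP mRNAs, 22 lay above 0 with a median of 0.15, and 0 passed the test. All 3 EAE samples were above all OVA samples for 5 of the 22, against 12.1% of all tested genes, namely Eef1a1 and Eef2, the main elongation factors, Pabpc1, the poly(A)-binding protein, Tpt1 and Rack1, the last a protein of the small subunit's head. Rack1 was 12.62, 12.60 and 12.55 in EAE and 11.97, 12.27 and 12.47 in OVA, a difference of 0.35 ± 0.12 (SE, limma adjusted p = 0.212). As in most ribosomal protein genes OVA 1 was lowest, but here OVA 3 stayed below every EAE sample. Over the 22 genes the median deviation was -0.27 in OVA 1 and 0.076 in OVA 3. Without OVA 3, 15 of the 22 were apart (21.4% of all tested genes) and 3 passed the test, namely Pabpc1, Rack1 and Vim (4.68% of all tested genes). Without EAE 3, 10 were apart (16.7% of all tested genes), and without OVA 1 the median was 0.07 with 18 above 0. Eef1b2 and Eef1d, subunits of the elongation factor's exchange complex, differed by 0.18 ± 0.11 and 0.08 ± 0.07 (SE).

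Genes that build the ribosome without being part of it had smaller median differences. Of 28 ribosome biogenesis genes, 17 lay above and 11 below 0, with a median of 0.05, and 0 passed the test. Nucleolin, Ncl, differed by 0.10 ± 0.10, the methyltransferase fibrillarin, Fbl, by 0.08 ± 0.11 and Nop56 by -0.05 ± 0.10 (SE). Of 12 genes of RNA polymerase I and its factors, 5 lay above and 7 below 0 with a median of -0.02. Its subunits Polr1a, Polr1b and Polr1c differed by 0.04 ± 0.07, -0.05 ± 0.10 and 0.11 ± 0.09 (SE). In both lists OVA 1 was not low as it was in the ribosomal protein genes, with a median deviation of -0.019 for biogenesis and 0.053 for polymerase I.

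Of 20 genes of the mTOR pathway and of TOP mRNA control, 9 lay above and 11 below 0 with a median of -0.02. Mtor differed by -0.02 ± 0.06, Rptor by 0.00 ± 0.10 and Rictor by 0.01 ± 0.07 (SE). Of 11 p53 targets and genes of ribosomal stress, 9 lay above 0 with a median of 0.14. Among them Trp53 differed by 0.03 ± 0.07, Mdm2 by 0.14 ± 0.10 and the cell cycle inhibitor Cdkn1a by 0.60 ± 0.29 (SE). Of 8 genes of ribosome quality control, 4 lay on each side of 0 with a median of -0.03, with Ltn1 at -0.15 ± 0.08, Nemf at -0.12 ± 0.09 and Pelo at -0.10 ± 0.12 (SE). None of these 3 lists had a gene past the limma threshold.

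The proteins of the mitochondrial ribosome, which are imported from the cytoplasm, are encoded by a separate set of nuclear genes. Of 77 tested, 56 lay above 0 with a median of 0.06, against 49.3% of all tested genes above 0, and 14 had EAE above OVA in every sample, against 12.1%. Without OVA 3 the latter count was 24 (21.4% of all tested genes), and without OVA 1 the number above 0 was 43 (50.9%). Their median deviation was -0.105 in OVA 1 and 0.004 in OVA 3. For the 36 nuclear genes of respiratory complex I, 26 lay above 0 with a median of 0.06. Over all 6 samples the cytosolic set had a median difference of 0.25 where both of these sets had 0.06. Without OVA 1 the medians were 0.11 for the cytosolic set, 0.0117 for the mitochondrial ribosome and -0.0088 for complex I, of which 16 lay above and 20 below 0. The difference between the sets was not tested.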

How the data were processed

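Per the labels' protocols, a stranded TruSeq mRNA kit was used. Tools listed in the submitters' processing notes, without roles, are STAR 2.6.1c, Subread 1.6.1, DESeq2 1.24.0, cutadapt 1.18 and bcl2fastq 2.17, with the build GRCm38. The authors deposited 1 table of regularised logarithms (log2 scale). Its annotation release and the settings of the transformation are not given in the sources used here. Depth is unknown, so no counting interval can be given. Of 55298 identifiers, 99.7% matched a symbol in GENCODE M21, and 25244 were at 0 in every sample.

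The 18161 genes with a mean rlog value of at least 3 were fitted with limma 3.58.1 in R 4.3.3 (empirical Bayes with intensity trend, two-sided, Benjamini-Hochberg over all tested genes, threshold 0.05), which was first checked on simulated data. An exact permutation test of 3 against 3 samples cannot go below p = 0.1 and was not used. All adjusted p are from limma. Errors after differences are SE. Alternatives left out each sample, changed the filter, the gene set, the scaling, the prior or the sample weights, or added the genes missed by the pattern. Transcript length, exon sharing and levels per kb used the APPRIS principal transcript of GENCODE. Promoters came from RefSeq. Marker sums are the log2 of summed unlogged values.

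The genes and lists were chosen with earlier results of these data known. Named genes were the 3 highest and lowest differences and levels per subunit, the paralogues and their partners, X-linked genes, genes with a role outside the ribosome, and the first 3 of each pathway list; others were named after their values were seen, and a few that the rule takes are not reported here. Replicate numbers follow the order of deposition.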

Additional observations from a re-analysis of the deposited data

How the results depend on the processing

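Over all 6 samples 0 of 78 ribosomal protein genes passed the threshold, and this count stayed at 0 without EAE replicate 1, 2 or 3, without OVA replicate 1 or 2, with no filter on low values, with a mean of at least 6, with protein-coding genes only, without the intensity trend and with a robust trend. Leaving out 1 sample at a time gave 0 to 20 genes past it (0 to 14 of the large and 0 to 6 of the small subunit), the highest counts without OVA replicate 3. It gave 22 to 64 genes with all EAE above all OVA samples (13 to 38 of the large and 9 to 25 of the small subunit). The count was 64 without OVA replicate 3, 52 (31 and 20) without EAE replicate 3, 24 without EAE replicate 1 and 22 otherwise. Over all 18161 tested genes the count was 2194 with all 6 samples and was higher with any sample left out. Without EAE replicate 1, 2 and 3 it was 2612, 2873 and 3027. Without OVA replicate 1, 2 and 3 it was 3399, 3024 and 3894. Centring each sample on its median gave 1 gene past the threshold, Rpl36, of the large subunit, and quantile normalisation gave 2, Rpl27a and Rpl36, both of the large subunit. Array quality weights gave 50 (29 and 21). Their estimation stopped before convergence, with a weight of 8.85 on OVA 2 and 0.275 and 0.222 on OVA 1 and OVA 3, so that OVA was read almost from OVA 2 alone. Leaving out 1 sample at a time turned the sign of 6 named genes, in each case without OVA replicate 1 and with none past the threshold. The lowest and highest values were -0.0062 and 0.158 for Rpl22, -0.111 and 0.128 for Rpl30, -0.0907 and 0.232 for Rpl36a, -0.0766 and 0.175 for Rpl39, -0.142 and 0.0163 for Rps10 and -0.055 and 0.323 for Rps27. Array quality weights turned it for Rpl30 (-0.0699), Rpl36a (-0.0166) and Rps10 (0.0069). The cause of these changes was not tested. No paired analysis was possible because replicate numbers only follow the order of deposition.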

Other observations

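Symbols of the ribosomal protein pattern that are annotated as pseudogenes were not counted as members, and their values are given here. Rps4l, a transcribed processed pseudogene on chromosome 6 in the annotation and a relative of Rps4x by name, was 8.39, 8.44 and 8.33 in EAE and 8.32, 8.38 and 8.25 in OVA, so that OVA 1 was not the low sample that it was for Rps4x (12.11). The processed pseudogenes Rpl32l and Rpl6l ran from 3.06 to 3.28 and from 2.55 to 2.68. Among related genes that the pattern does not admit, Rpl9-ps6, annotated as protein-coding, was 5.48, 5.61 and 5.40 in EAE and 5.16, 5.25 and 5.58 in OVA, with OVA 1 lowest as for Rpl9. Rps27rt ran from 2.26 to 2.47.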
